A study of Solanum lycopersicum with 9 samples.

Results

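The xyloglucan endotransglucosylase/hydrolase (XTH) genes of tomato (Solanum lycopersicum) were followed in roots that had met a patch of soil enriched in NH4+. Members were the probe sets of XTH1 and XTH5 in the study's table of cell wall genes and every probe set of the Affymetrix Tomato GeneChip whose gene symbol begins with XTH or XET, provided that the signal reached 100 on at least 1 of the 9 arrays. The name rule gave 10 of the 10038 tomato probe sets, for 8 genes, and 7 of these 10, for 5 genes, reached the signal limit. They were 1 probe set each for XTH1, XTH5, XTH3 and XTH6 and 3 probe sets for XTH16. In all, 6670 tomato probe sets reached the limit and were tested.

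All plants were wild-type cultivar 76R, grown in a field soil and colonized by arbuscular mycorrhizal fungi. Water alone, or NH4+ at 6.5 (low NH4+) or 65 (high NH4+) μg of N per g of soil, was injected into a buried ring of soil, and the roots inside the ring were collected 53 h later, with water (0 μg) as the control for the added moisture. Each treatment had 3 biological replicates, each hybridized to its own array. The comparisons ask whether these genes respond to the patch at each dose and whether the doses differ.

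Xyloglucan is a branched polysaccharide that coats and joins the cellulose microfibrils of the primary cell wall. XTH enzymes cut a xyloglucan chain and either join the new end to another xyloglucan chain, which is the endotransglucosylase (XET) activity, or to water, which is hydrolysis. The activity is known from growing tissue, including the elongation zone and the root hairs of roots, where walls are loosened and rebuilt during expansion. The genes form a large family in plants, and the members differ in where and when they are expressed.

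Values are MAS5 signals on the log2 scale, on which a step of 1 is a doubling. A probe set is called changed where the adjusted p from limma, a linear model fitted to all tested probe sets, is under 0.10, the rate used by the study. Levels of different probe sets are not compared, because each has its own probes. The root is a mixture of cell types, so fewer cells of a type and less RNA per cell cannot be told apart in any of these values.

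The low NH4+ arrays stood apart from the others as a group. Their median log2 signals over the tomato probe sets were 7.15, 6.87 and 7.14, below those of all 6 other arrays (7.23 to 7.59), and their scores on the first principal component, which held 37.8% of the variance, were 16.7, 52.7 and 13.3 against at most 0.15 elsewhere. Low NH4+ replicate 2 and water replicate 3 were the extremes of both measures. The part of these differences in the low NH4+ results was not tested. The median log2 difference over all tested probe sets was -0.08 for high NH4+ against water, -0.16 for low NH4+ against water and 0.07 for high against low NH4+, and median centring of the arrays moved these medians by 0.096, 0.23 and -0.13. As to tissue, the 3 root transport and regulator genes found by symbol, AMT1-2, PT1 and FER, reached the signal limit, FER on 6 arrays only. So did 2 of the 5 probe sets of genes known from ripening fruit, both of Psy1 (on 7 and 8 arrays). A further Psy1 probe set, E8 and PG2 reached it on no array. Among 7 probe sets of photosynthesis genes (CAB and PSB symbols), 5 reached the limit on at least 1 array and CAB5 and CAB6A did so on none.

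XTH1 and XTH5 went in opposite directions in high NH4+ roots. XTH1 was 3.12-fold higher and XTH5 was 2.53-fold lower than in roots given water, and these were the only 2 of the 7 XTH probe sets called in this comparison, in which 6.52% of all 6670 probe sets were called. In low NH4+ roots no XTH probe set was called against water, and in the direct comparison of doses XTH1 alone was called, 4.13-fold above its low NH4+ level. The low NH4+ comparison called 2.98% of all probe sets and the comparison of doses called 0.840% higher. None of these 3 calls was kept with the replicate number as a block. The study had picked XTH1 and XTH5 for its cell wall table from their high NH4+ response on these same arrays, so their calls are not independent evidence for that response.

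Separation of the groups was frequent on these arrays. In high NH4+ roots 1 XTH probe set (XTH1) lay wholly above water and 1 (XTH5) wholly below it, where 13.4% of all tested probe sets were separated upward and 19.6% downward. In low NH4+ roots 1 (XTH5) lay wholly below water, where 17.5% of all did. Between the doses 3 (XTH1, XTH6 and 1 of XTH16) lay wholly above under high NH4+, where 15.1% of all did.

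**Figure D1:**
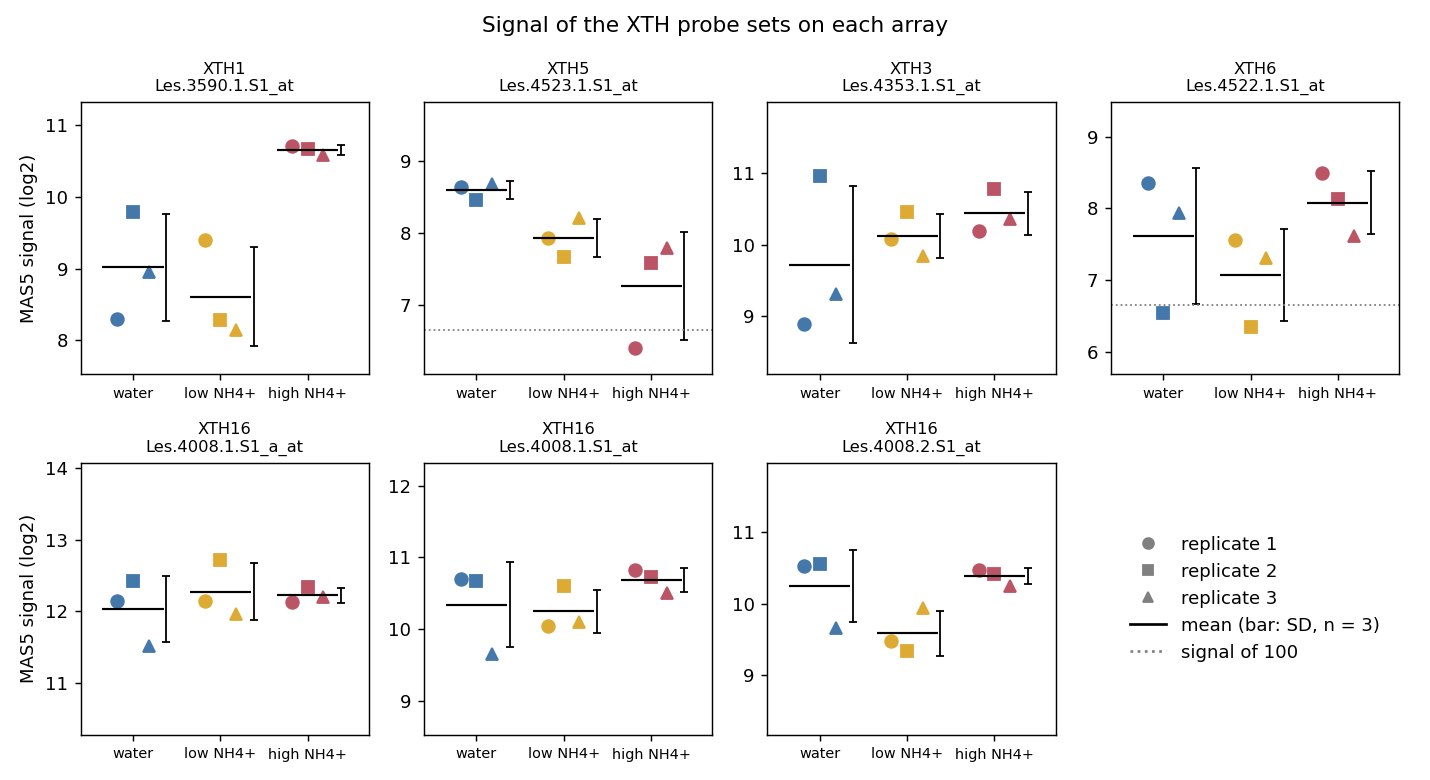
MAS5 signal (log2, vertical axis) of each of the 7 XTH probe sets on the 9 arrays, by treatment, with the replicate as the symbol, the mean as a line, the SD (n = 3) as a bar and a signal of 100 as a dotted line where it falls in the panel. The 3 high NH4+ arrays lie above all other arrays for XTH1, and the 3 water arrays lie above all other arrays for XTH5.

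XTH1 encodes an enzyme of the transferase family just described. Its log2 signal was 8.30, 9.80 and 8.96 in the water replicates, 9.40, 8.29 and 8.14 under low NH4+ and 10.72, 10.68 and 10.58 under high NH4+. All 3 high NH4+ arrays thus exceeded each of the other 6, while the water and low NH4+ arrays overlapped. The group means were 9.02 ± 0.75 (SD, n = 3) in water, 8.61 ± 0.69 (SD, n = 3) in low NH4+ and 10.66 ± 0.069 (SD, n = 3) in high NH4+ roots. The high NH4+ replicates were closer to each other than those of the other treatments.

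XTH1 was higher in high NH4+ roots than in water by 1.64 on the log2 scale (SE 0.41, 95% interval 0.70 to 2.58, limma adjusted p = 0.0807, n = 3 per group). Between the doses it was higher under high NH4+ by 2.05 (SE 0.41, 95% interval 1.11 to 2.98, limma adjusted p = 0.0964). The low NH4+ difference from water was -0.41 (95% interval -1.35 to 0.53, limma adjusted p = 0.561), an interval that holds both a decrease and a small increase. Relative to the median of all tested probe sets, the differences of XTH1 were 1.72 for high NH4+ against water, -0.25 for low NH4+ and 1.97 between the doses. The order of treatments for XTH1 was therefore high NH4+, water and low NH4+, and water and low NH4+ did not differ beyond their spread.

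Both XTH1 calls were close to the threshold. Adjusting over all 10038 tomato probe sets, with no filter on signal, gave limma adjusted p-values of 0.143 against water and 0.141 between the doses, and the methods' test, which takes each probe set alone, gave 0.157 and 0.229. The plants had been set out in blocks, which the methods do not enter in the model for the arrays, and the sources used here do not say whether the replicate number of an array marks its block. With the replicate number as a block, both XTH1 calls were lost (limma adjusted p = 0.136 and 0.155). Leaving out water replicate 1, water replicate 3 or any 1 high NH4+ array ended the call against water, with an adjusted p of 0.234, 0.176, 0.209, 0.258 and 0.132 in that order of arrays, with the log2 difference between 1.28 and 1.68 in these 5 fits. Over all tested probe sets these fits called 11, 112, 6, 6 and 285 in the same order, against 435 with all arrays. Without water replicate 2 the difference was 2.03 and the call was kept (limma adjusted p = 0.0365), in a fit that called 728. The call against low NH4+ was lost after quantile normalization (difference 1.92, limma adjusted p = 0.129) and median centring of the arrays (1.91, adjusted p = 0.114), and in fits lacking water replicate 1, water replicate 3, low NH4+ replicate 2 or a high NH4+ array (adjusted p = 0.101, 0.112, 0.278, 0.387, 0.274 and 0.139 in that order).

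XTH5 encodes another enzyme of the family. Its log2 signal was 8.65, 8.46 and 8.69 in the water replicates, 7.93, 7.67 and 8.20 under low NH4+ and 6.39, 7.59 and 7.79 under high NH4+. Every water array was above every array of both NH4+ treatments, and the high and low NH4+ arrays overlapped. High NH4+ replicate 1 was the lowest and, at a signal of 84.1, the only array below the limit of 100.

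The mean of XTH5 fell from 8.60 ± 0.12 (SD, n = 3) in water to 7.26 ± 0.76 (SD, n = 3) in high NH4+ roots, a log2 difference of -1.34 (SE 0.34, 95% interval -2.10 to -0.57, limma adjusted p = 0.0804). In low NH4+ roots the mean was 7.94 ± 0.27 (SD, n = 3), and the difference from water of -0.66 did not pass the test (95% interval -1.43 to 0.10, limma adjusted p = 0.255). The difference between high and low NH4+ roots was -0.68 (95% interval -1.44 to 0.09, limma adjusted p = 0.304). Relative to the median of all tested probe sets, XTH5 differed from water by -1.26 under high NH4+ and by -0.50 under low NH4+. The order was thus water, low NH4+ and high NH4+, with no call between neighbouring treatments.

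Leaving out water replicate 1, water replicate 3, low NH4+ replicate 1, high NH4+ replicate 1 or high NH4+ replicate 2 ended the XTH5 call, with an adjusted p of 0.224, 0.179, 0.112, 0.164 and 0.214 in that order. Over all tested probe sets these fits called 11, 112, 282, 6 and 6 in the same order, against 435 with all arrays. With no filter on signal the limma adjusted p of XTH5 was 0.143, and with the replicate number as a block it was 0.104. By the methods' test as rerun here the adjusted p was 0.153. The difference was -0.91 without high NH4+ replicate 1 and -1.61 without high NH4+ replicate 3. Between the groups, the summed signal of the 7 photosynthesis probe sets moved in the same direction as XTH5. It was 1944 to 2877 in the water replicates, 749 to 1626 under low NH4+ and 541 to 987 under high NH4+. Within the water group the sum and XTH5 had the same order of arrays, but within the NH4+ groups they did not. Low NH4+ replicate 3 had the lowest sum of its group (749) and the highest XTH5 (8.20). High NH4+ replicate 1 had the highest sum of its group (987) and the lowest XTH5 (6.39). PSBR had the highest signals of the 7, at 407 to 1967, where no other exceeded 335. CAB5 and CAB6A were not lower in high NH4+ roots than in water (mean log2 2.55 against 2.54, and 4.47 against 4.10). The part of this sum in the XTH5 result was not tested.

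**Figure D2:**
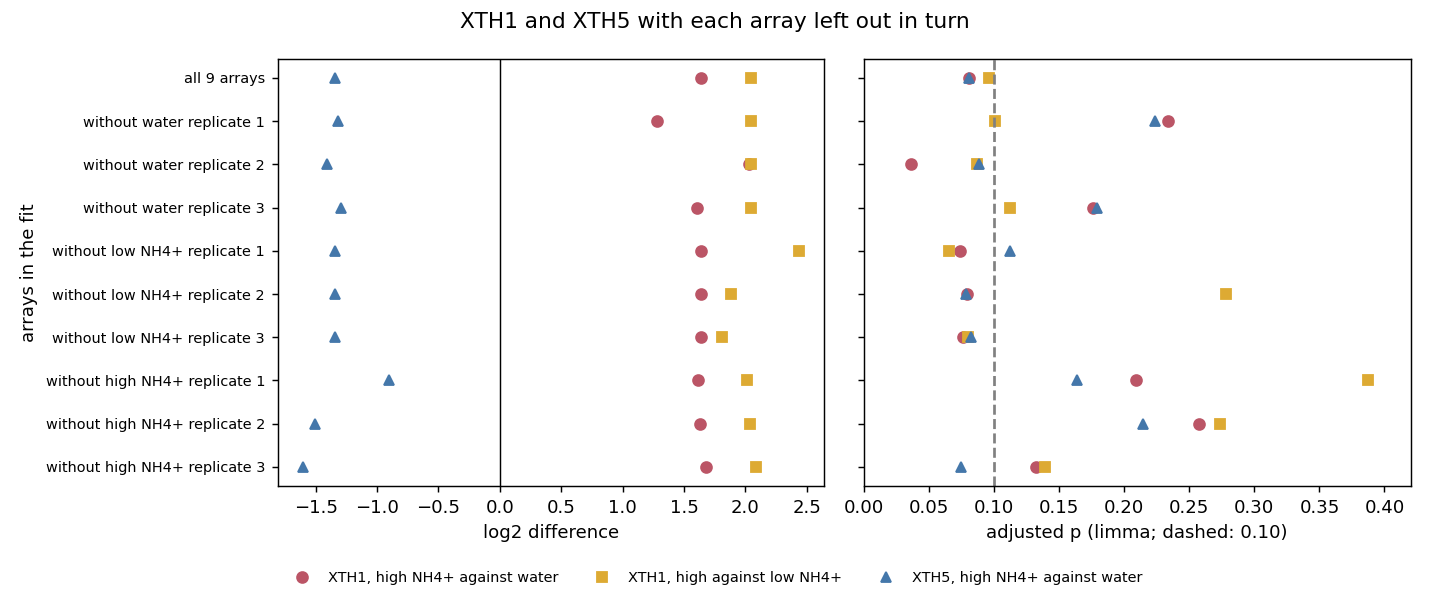
Log2 difference (left) and adjusted p from limma (right, dashed at 0.10) for XTH1 and XTH5 with all 9 arrays and with each array left out. The differences keep their sign in every fit shown, and each call is lost in 5 or 6 of the 9 fits.

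**Figure D3:**
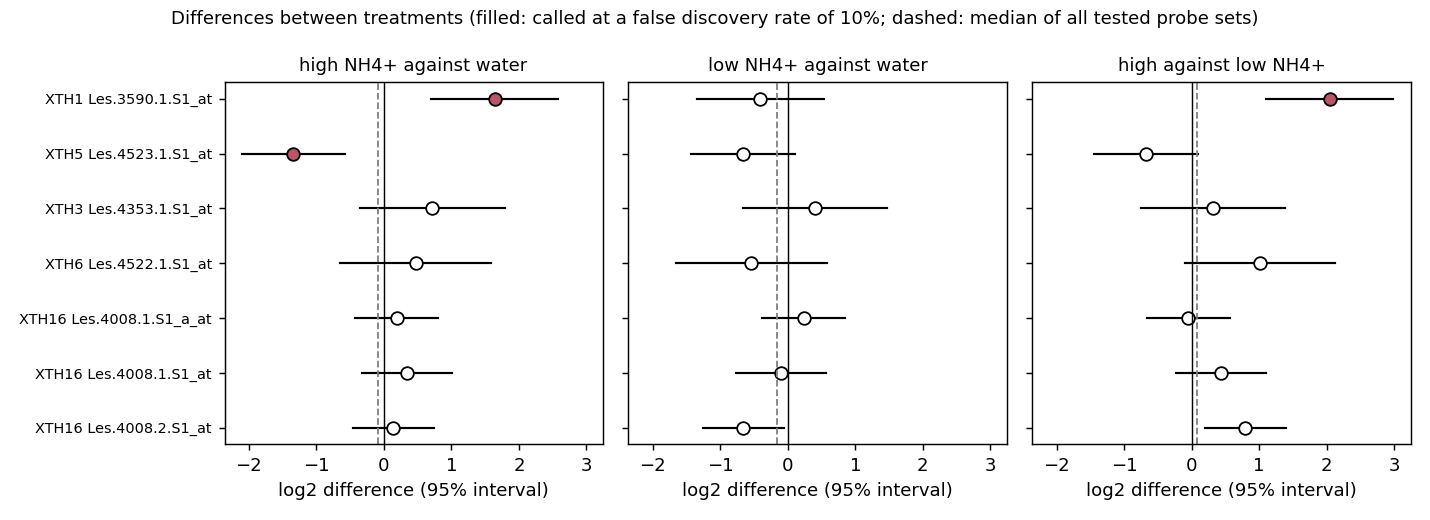
Log2 differences (points) with their 95% intervals (lines) for the 7 XTH probe sets in the 3 comparisons, filled where called at a false discovery rate of 10%, with the median of all 6670 tested probe sets as a dashed line. Filled points are XTH1 (1.64) and XTH5 (-1.34) in high NH4+ against water and XTH1 (2.05) in high against low NH4+.

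The ratio of XTH1 to XTH5 on one array does not depend on how that array was scaled, and its change between treatments describes how far the pair moved apart. The log2 ratio was -0.35, 1.34 and 0.27 in the water replicates, 1.47, 0.62 and -0.06 under low NH4+ and 4.32, 3.09 and 2.79 under high NH4+. Water and low NH4+ arrays overlapped, and the high NH4+ arrays lay above both. The mean log2 ratio was 0.42 ± 0.85 (SD, n = 3) in water, 0.68 ± 0.77 (SD, n = 3) in low NH4+ and 3.40 ± 0.81 (SD, n = 3) in high NH4+ roots. This pair was chosen after its values were seen, so no test is given.

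**Figure D4:**
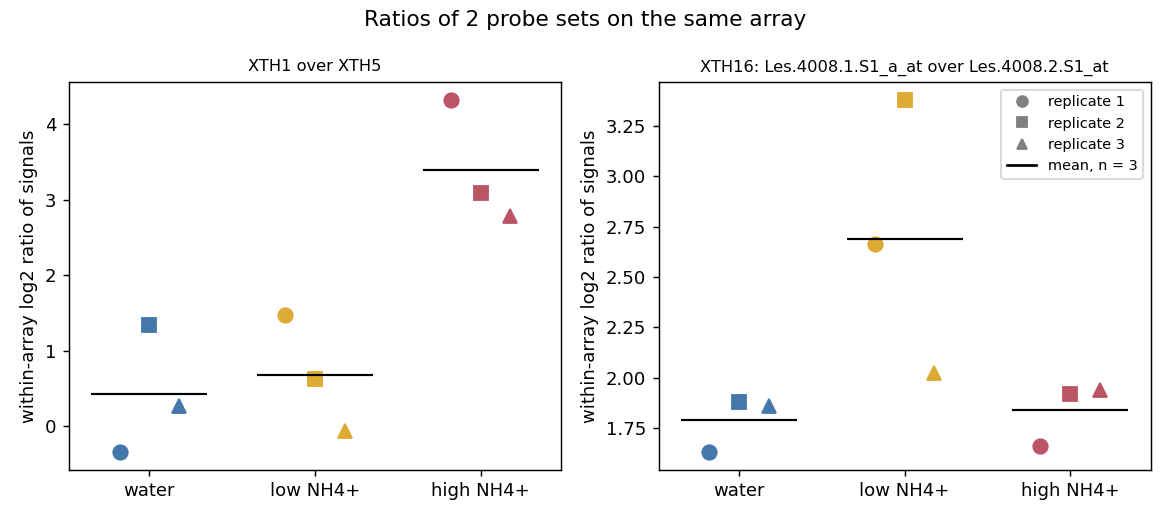
Within-array log2 ratio of 2 probe sets (vertical axis) by treatment, for XTH1 over XTH5 and for 2 probe sets of XTH16, with the replicate as the symbol and the mean (n = 3) as a line. The XTH1 to XTH5 ratio is at least 2.79 on the high NH4+ arrays and at most 1.47 on the others, and the XTH16 ratio is 2.02 to 3.38 on the low NH4+ arrays and 1.63 to 1.94 on the others.

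XTH3 and XTH6, the other single-probe-set genes, were not called in any comparison. XTH3 had log2 signals of 8.89, 10.96 and 9.32 in the water replicates, 10.07, 10.46 and 9.84 under low NH4+ and 10.19, 10.77 and 10.35 under high NH4+. Water replicate 2 was the highest of all 9 arrays and the other water arrays were the lowest, so the water group spanned the whole range. The log2 difference from water was 0.72 in high NH4+ roots (95% interval -0.35 to 1.79, limma adjusted p = 0.397) and 0.40 in low NH4+ roots (95% interval -0.67 to 1.47, limma adjusted p = 0.614).

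The XTH3 values turned on which water arrays were in the fit. Without water replicate 1 the difference was 0.30 in high NH4+ and -0.015 in low NH4+ roots. Without water replicate 2, XTH3 was higher than water by 1.33 in high NH4+ roots (SE 0.27, limma adjusted p = 0.0411) and by 1.02 under low NH4+ (SE 0.27, limma adjusted p = 0.0830), and these comparisons share their water arrays. Over all tested probe sets those fits called 728 and 638, against 435 and 199 with all arrays. The related gene tXET-B2, which the name rule leaves out, also had its highest log2 signal on water replicate 2 (10.20) and its lowest on water replicate 1 (8.75). Over the 9 arrays the Pearson correlation of XTH3 and tXET-B2 was 0.83. The other 7 values of tXET-B2 lay between 9.45 and 9.76, and its log2 differences were 0.09 for high NH4+ and 0.09 for low NH4+ against water.

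XTH6 had log2 signals of 8.35, 6.54 and 7.94 in the water replicates, 7.56, 6.35 and 7.31 under low NH4+ and 8.49, 8.13 and 7.62 under high NH4+. The signal was under 100 on 2 arrays, water replicate 2 (92.8) and low NH4+ replicate 2 (81.4). The 3 high NH4+ arrays were above the 3 low NH4+ arrays. The log2 difference between high and low NH4+ roots was 1.01, with a 95% interval from -0.10 to 2.12 (limma adjusted p = 0.298). Against water the differences were 0.47 in high NH4+ and -0.54 in low NH4+ roots (limma adjusted p = 0.607 and 0.513). The first of these fell to -0.06 without water replicate 2.

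XTH16 is represented by 3 probe sets, here called by the end of their names. The probe sets 1.S1_a_at and 1.S1_at were designed on one expressed sequence and 2.S1_at on another. They measure the same gene and are not independent, and none was called in any comparison. Probe set 1.S1_a_at had log2 signals of 12.15, 12.43 and 11.52 in the water replicates, 12.14, 12.72 and 11.96 under low NH4+ and 12.13, 12.34 and 12.20 under high NH4+, and the groups overlapped. Probe set 1.S1_at had 10.70, 10.67 and 9.66 in water, 10.05, 10.59 and 10.10 in low NH4+ and 10.82, 10.72 and 10.50 in high NH4+ roots, again with overlap between the groups.

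Probe set 2.S1_at had log2 signals of 10.52, 10.55 and 9.66 in the water replicates, 9.48, 9.35 and 9.94 under low NH4+ and 10.47, 10.42 and 10.25 under high NH4+. All 3 low NH4+ arrays lay below the high NH4+ arrays. In high NH4+ roots the 3 probe sets differed from water by 0.14 to 0.34, and all 3 of the 95% intervals held 0.

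The XTH16 probe sets did not behave alike in low NH4+ roots. The log2 difference from water was 0.24 for 1.S1_a_at (95% interval -0.37 to 0.85), -0.10 for 1.S1_at (95% interval -0.76 to 0.57) and -0.66 for 2.S1_at (95% interval -1.26 to -0.06, limma adjusted p = 0.185). For high against low NH4+ roots the same probe sets gave -0.05, 0.44 and 0.80, the last with a 95% interval from 0.20 to 1.39 (limma adjusted p = 0.192). Without low NH4+ replicate 3 the values of 2.S1_at were -0.83 against water (limma adjusted p = 0.0986) and 0.97 for the doses (limma adjusted p = 0.0888). Those fits called 1126 and 860 of all 6658 probe sets tested in them, against 199 and 60 of 6670 with all arrays.

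The ratio of 1.S1_a_at to 2.S1_at on the same array showed where the probe sets parted. It was 1.63, 1.88 and 1.86 on the log2 scale in the water replicates, 2.66, 3.38 and 2.02 under low NH4+ and 1.66, 1.92 and 1.94 under high NH4+. The low NH4+ arrays were above all others, with the largest ratio on low NH4+ replicate 2, the array with the lowest median signal. The Pearson correlation over the 9 arrays was 0.06 between these 2 probe sets, 0.73 between 1.S1_a_at and 1.S1_at and 0.65 between 1.S1_at and 2.S1_at. The ratio was examined after the values were seen and is a description.

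Across the 7 XTH probe sets, the median log2 difference from water was 0.34 in high NH4+ roots, where 6 were positive and 1 was negative, beside a median of -0.08 over all 6670 tested probe sets. It was -0.41 in low NH4+ roots, where 2 were positive and 5 negative, beside -0.16 over all. For high against low NH4+ roots it was 0.44, with 5 positive and 2 negative, beside 0.07 over all. With 3 of the 7 probe sets from XTH16, these medians lean on 1 gene.

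The calls by direction may be read against the background of each comparison. In high NH4+ roots against water 1 XTH probe set was called higher and 1 lower, where 2.73% of all tested probe sets were called higher and 3.79% lower. In low NH4+ roots limma called 0 of 7 against water, where it called 2.98% of all probe sets. At an unadjusted limma p under 0.05 there was 1 of 7, where 23.9% of all had one. The methods' test as rerun here called 0 of 7, where it called 1 of all 6670. The study reported more genes for low NH4+ against water than this rerun called. For high against low NH4+ roots 1 of 7 was called, higher, where 0.840% of all were called higher. At these rates, 1 or 2 calls among 7 probe sets say little about the family as a whole.

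The 3 probe sets below the signal limit were XET2, XET4 and XTH7, which reached at most 22.7, 20.2 and 13.7 on any array. The member closest to the limit from above was XTH6, with a highest signal of 360. XET2 had log2 signals of 4.42, 3.95 and 4.50 on the high NH4+ arrays, above those of the other 6 arrays (1.55 to 3.72), but all of these are far below the limit and were not tested. XTH7 stood at a log2 signal of 0 on water replicates 1 and 3.

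Another endo-xyloglucan transferase-like probe set, which has no gene symbol, also stands in the cell wall table. Its log2 signal was 6.77, 6.96 and 6.75 in the water replicates, 6.76, 6.67 and 6.82 under low NH4+ and 7.52, 7.13 and 7.26 under high NH4+, which lay above all others as they did for XTH1. The log2 difference was 0.48 for high NH4+ against water (SE 0.16, limma adjusted p = 0.130) and 0.55 for high against low NH4+ (SE 0.16, limma adjusted p = 0.151), and neither passed the test. Against water the low NH4+ value was -0.07.

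Genes with a symbol whose profile over the 9 arrays was most like that of XTH1 were P18 (Pearson r = 0.98), LOC778302, which the study annotates as a pectinesterase (0.97), and sumo, a small ubiquitin-like protein modifier (0.95). Their log2 differences in high NH4+ roots against water were 0.82, 1.33 and 0.77, of which only that of LOC778302 was called (limma adjusted p = 0.0712). For XTH5 the closest were LOC543933 (0.96), the vacuolar processing enzyme gene VPE5 (0.94) and the diacylglycerol kinase gene DGK1 (0.90), at -0.86, -0.60 and -0.71, of which LOC543933 was called (limma adjusted p = 0.0840). These were the top 3 of 665 candidates for each gene, all on the same 9 arrays, and share whatever set one array apart from another.

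Other enzymes and proteins of the wall were read from a list of 35 probe sets chosen by gene symbol, of which 23 were tested. In high NH4+ roots limma called 3 of the 23 higher than water and 0 lower, with 9 higher and 3 lower at an unadjusted p under 0.05, where 6.52% of all tested probe sets were called and 22.0% had an unadjusted p under 0.05. The median log2 difference of the 23 was 0.40. The expansins EXP2 and EXP5, which loosen walls without cutting polysaccharides, rose by 1.68 (SE 0.39, limma adjusted p = 0.0671) and 0.90 (SE 0.23, limma adjusted p = 0.0849), and the beta-galactosidase TBG6 rose by 0.69 (SE 0.18, limma adjusted p = 0.0856). All 3 are also in the study's cell wall table, so they are not independent evidence for the direction.

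In low NH4+ roots limma called 1 of the 23 lower than water and 0 higher, with 4 lower and 2 higher at an unadjusted p under 0.05, where 2.98% of all were called and 23.9% had an unadjusted p under 0.05. The called gene was the endoglucanase Cel1, an enzyme that cuts glucan chains, with a log2 difference from water of -3.90 (SE 0.70, limma adjusted p = 0.0630) and of -2.45 in high NH4+ roots (SE 0.70, limma adjusted p = 0.103). Between the doses limma called 0 of the 23, with 6 higher and 2 lower at an unadjusted p under 0.05, where 18.5% of all had one. Of the 6 endoglucanases tested, Cel1 was the only one called, and of the 8 expansins tested 7 had a positive difference in high NH4+ roots.

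The remaining 15 probe sets of the cell wall table, which the study chose on these arrays, had 8 called higher and 1 called lower than water in high NH4+ roots, where 2.73% and 3.79% of all tested probe sets were, and 14 positive differences. In low NH4+ roots 1 was called higher and 9 were positive, where 2.98% of all were called in either direction. Between the doses 2 were called higher and 13 were positive, where 0.840% of all were called higher. Those 2 were a pectin acetylesterase and a pectinesterase, enzymes that remove side groups from pectin, at 2.22 and 2.13 on the log2 scale (limma adjusted p = 0.0922 and 0.0881). Of the xyloglucan enzymes described above, XTH1, at 2.05, was the only one called in that comparison.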

How the data were processed

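The authors read 9 Tomato GeneChip arrays with the MAS5 algorithm of Affymetrix Expression Console and deposited the natural log (ln) of each signal. Versions: not given in the sources used here. Deposited ln values were converted to log2, 171 control probe sets were left out, and probe sets at a signal of 100 or more on at least 1 array were kept, as in the methods. Gene symbols came from the platform annotation, which gives one for 909 probe sets, and all 8 genes under the name rule were found in RefSeq by gene ID. Sequences and positions were not used here.

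Differences were tested with limma 3.58.1 in R 4.3.3 (3 groups, 9 arrays, 6 residual and 2.87 prior degrees of freedom) and adjusted by Benjamini and Hochberg's method over 6670 probe sets within each comparison. The script was tested on simulated data. Figures were made with Python 3.11.15 and matplotlib 3.10.9. Replicates are labelled as biological, and the number of arrays limits the precision.

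Every probe set under the name rule is given, with the 3 genes most correlated with XTH1 and XTH5 and the called genes of a cell wall list. Members, lists and tests were chosen with earlier results of these data known. Alternatives were no filter, a stricter filter, quantile normalization, median centring, a floor at 100, the methods' test (each probe set alone, with no moderation), limma-trend, a fit of only 2 groups, a replicate block, a false discovery rate of 5% and arrays left out.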

Additional observations from a re-analysis of the deposited data

How the results depend on the processing

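Of the 399 member values under 19 alternatives, 345 kept both their direction and their side of the threshold. A further 32 lost a call, 4 gained one and 18, none of them called, changed sign. Most of the 345 were uncalled values that stayed uncalled, so this number does not describe the calls. In high NH4+ roots against water, XTH1 and XTH5 each lost the call in 9 of the 19 alternatives and kept it in 10. Between the doses XTH1 lost its call in 14 of the 19 and kept it in 5. The differences of XTH1 and XTH5 that were called kept their sign under every alternative run.

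The number of XTH probe sets called in high NH4+ roots against water was 2, and was 0 with no filter, by the methods' test, with the replicate block, with low NH4+ replicate 2 and water replicate 3 both left out and at a false discovery rate of 5%. It ran from 0 to 3 with 1 array left out. Calls over all tested probe sets went from 435 to 141, 139, 205, 170 and 99 under those settings, in that order. They ran from 6 to 728 with 1 array left out. The study reported more genes for high NH4+ against water than the rerun of the methods' test called. The number of XTH probe sets called in high against low NH4+ roots was 1, and was 0 under the same settings. It was also 0 after quantile normalization or median centring, with signals under 100 set to 100 and in a fit of only the 2 groups compared. Over all probe sets, calls between the doses were 60 in the main fit and 2, 6, 66 and 0 under these last settings. With 1 array left out, the XTH number ran from 0 to 2 and that over all probe sets from 0 to 860. The XTH number in low NH4+ roots was 0, ran from 0 to 1 with 1 array left out and stayed 0 under the other settings. Over all probe sets it was 199, and from 4 to 1126 with 1 array left out. The cause was not tested.

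The plants were set out in blocks, but the sources used here do not tie an array's replicate number to a block. The values did not show that the numbers pair the arrays. Deviations were correlated over 0.1 in 2 of 9 same-numbered pairs (from -0.38 to 0.35). The same held for 8 of 18 pairs with different numbers (from -0.39 to 0.40). With the replicate block, XTH1 had an adjusted p of 0.136 against water and 0.155 against low NH4+, and XTH5 one of 0.104 against water.

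Signs that changed were those of small differences that were not called. With 1 array left out, the high NH4+ difference from water ranged from -0.064 (without water replicate 2) to 0.84 for XTH6, and over XTH16 from -0.067 to 0.38 for 1.S1_a_at, -0.0018 to 0.52 for 1.S1_at and -0.15 to 0.29 for 2.S1_at, all 3 lowest without water replicate 3 and at the same values when low NH4+ replicate 2 was left out as well. The low NH4+ difference from water ranged from -0.016 to 0.44 for 1.S1_a_at, from -0.44 to 0.083 for 1.S1_at and from -0.015 to 1.02 for XTH3. For 1.S1_a_at it was -0.025 after quantile normalization and -0.24 with both arrays left out, and for 1.S1_at it was 0.13 after median centring. The difference of doses for 1.S1_a_at ranged from -0.21 to 0.17, and was 0.15 after quantile normalization and 0.17 with both arrays left out.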
